A study of Arabidopsis thaliana with 24 samples.

Results

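Adding 150 mM NaCl to the 200 mM mannitol that heated Arabidopsis plants received lowered 353 of 20027 tested genes and raised 171. Auxin genes and genes of aliphatic glucosinolate synthesis were among those that fell. The sugar-cleaving enzymes CWINV5 and SIP2 and the cellulose synthases of the secondary wall were among those that rose. The dehydrin LTI30 rose too, but only just passed the threshold (edgeR, adjusted p = 0.0495). The comparison rests on 6 of the 24 libraries of the series, 3 of plants watered with salt and mannitol and then heated and 3 of plants watered with mannitol and then heated, chosen by their treatment labels and not by any measured value. All plants were Arabidopsis thaliana Col-0, grown in soil under 16 h of light at 22 °C with nights at 18 °C, transplanted at 2 weeks and treated 14 days later. Rosettes were sampled 16 h after watering, and both groups spent the last 4 h of that time at 35 °C in another cabinet. The series also holds control, salt, mannitol, heat, salt-mannitol and salt-heat groups of 3 libraries each. No watering is recorded for the control and heat groups. Because salt came on top of mannitol, its ions and its added osmotic load cannot be told apart. The labels do not say whether a replicate is 1 plant or a pool, so the p-values measure the spread between these libraries, which may be technical.

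Mannitol lowers the water potential around the root and is taken up poorly, while NaCl adds an osmotic load and sodium and chloride ions that plants must exclude or store in vacuoles. Both kinds of load raise abscisic acid (ABA), a hormone that closes stomata and switches on protective genes such as those of the dehydrins, and high temperature switches on chaperone genes through heat shock factors. Warmth also raises auxin, which drives cell elongation through the small SAUR proteins and wall-loosening enzymes. Glucosinolates are sulfur-rich defence compounds of Arabidopsis and its relatives, made in leaves from methionine or tryptophan.

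Libraries were compared on read counts recovered from the deposited estimated counts, and levels are given as deposited TPM, a transcript level corrected for gene length and sequencing depth. Totals of the 6 libraries ran from 12498514 to 15859773 reads, with 21871 to 22155 genes detected in each. The second mannitol-heat library stood apart. Genes encoded in the chloroplast or mitochondrion took 0.690% of its reads, against 0.0242% to 0.136% in the other 23 libraries of the series, and it had the fewest reads of the 24. In a principal component analysis of the 6 libraries the first component, with 37.9% of the variance, placed it at -7.29, the other mannitol-heat libraries at -25.2 and -43.2 and the salted ones between 17.2 and 29.5. The second component, with 24% of the variance, set it at -48.4 against 4.14 to 15.2 for the other 5. The mesophyll markers RBCS1A, LHCB2.1, CA1 and GAPB summed to 10041 to 14158 TPM without salt and 9912 to 11277 TPM with it, and the 4 guard cell markers to at most 25.3 and 22.5 TPM. No marker on either list was called by edgeR with all 6 libraries, with 2 and 1 at an unadjusted p under 0.05, while 2 mesophyll markers and 1 guard cell marker fell without the second mannitol-heat library, and DESeq2 called 1 mesophyll marker; their part in the results was not tested. Root markers summed to at most 0.459 TPM, flower markers to at most 0.932 TPM and seed markers to at most 0.122 TPM. In whole rosettes, fewer cells of a type and less RNA per cell cannot be told apart.

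A gene was called when edgeR's quasi-likelihood test gave an adjusted p (Benjamini-Hochberg over all tested genes) under 0.05. By that rule 2.62% of genes were called, 0.854% higher and 1.76% lower with salt, and 101 of the 524, or 0.504% of tested genes, differed at least 2-fold. All 3 libraries of one group lay beyond the 3 of the other for 23% of tested genes, called or not, and for 503 of the 524 called. The 12 largest rises and 12 largest falls named below were chosen with that separation as a condition. For them it is a description and no added support. The median log2 fold change over all tested genes was -0.02. Scaled to library totals alone, 237 genes were higher and 202 lower, so the excess of falls over rises was not found under that scaling. With the 2 groups fitted alone the balance turned round, at 116 higher and 41 lower. Without the second mannitol-heat library 2087 genes were called, 709 higher and 1378 lower, or 10.3% of those tested (3.51% and 6.82%), and 508 of the 524 calls were among them, all in the same direction. Counts of list members without that library are to be read beside these shares. Leaving out the first mannitol-heat library left 85 calls and leaving out the third left 45. Leaving out the first, the second or the third salted library there were 140, 109 and 454 calls. Among genes called without the second mannitol-heat library, that library lay a median 70.9% of the way from the other mannitol-heat libraries to the salted ones. For the other 5 libraries the same figure, over the genes called without each, ran from -6.46% to 38.7%. The part of the organelle share in this difference was not tested. Most genes are therefore given with the number of the 6 fits, each leaving out 1 library, in which they were still called. These fits were counted over the 70 called genes that the naming rules picked, and not over the other genes named below. Of the 70, 68 stayed called without the second mannitol-heat library, 15 without the first and 8 without the third. Without each salted library in turn 17, 19 and 45 stayed called, and none of the 70 changed direction. With the 2 groups fitted alone 18 of the 70 stayed called, and scaled to library totals alone 60 did.

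**Figure D1:**
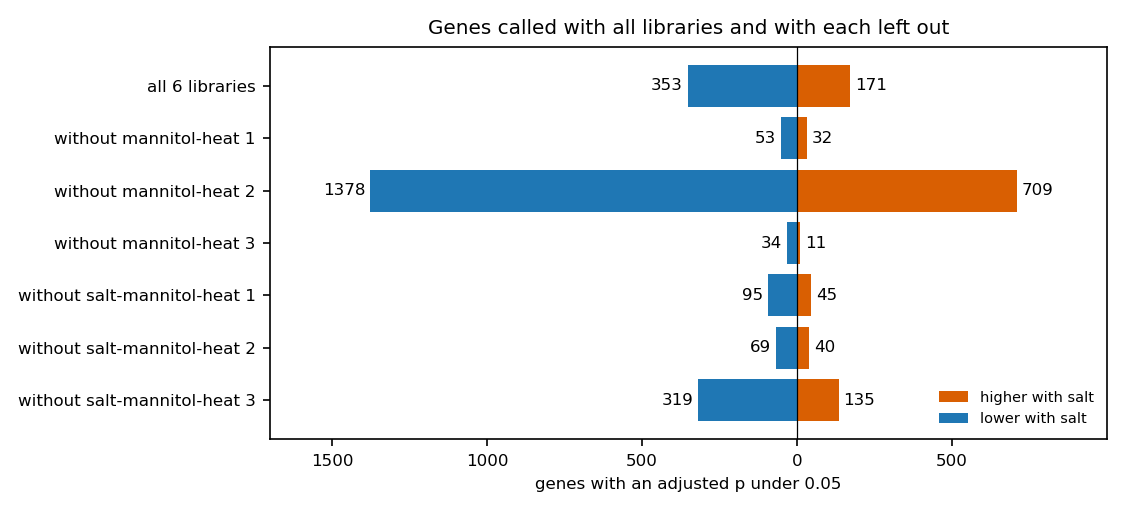
Number of genes with an adjusted p under 0.05 (horizontal axis) that were higher (orange, right) or lower (blue, left) with salt, with all 6 libraries and with each left out in turn (rows). The 2087 calls without the second mannitol-heat library exceed the 524 calls of all 6, and the other 5 bars are shorter.

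The largest rise belonged to AT2G36780, a UDP-glycosyltransferase gene of the family that attaches sugars to hormones and defence compounds. It lay at 0.462, 0.688 and 0.439 TPM in the mannitol-heat libraries and at 5.71, 4.38 and 8.57 TPM with salt, on 54 and 621 reads in all. Every salted library was above every other, by a log2 fold change of 3.56 ± 0.58 (SE, adjusted p = 0.00604), and the call held in 5 of 6 fits. Closely similar glycosyltransferase genes neighbour it, so the authors' counting could have split reads among copies. AT1G09500, annotated as an NAD(P)-binding Rossmann-fold protein, followed at 4.83, 5.25 and 1.95 TPM without salt and 24.5, 25.7 and 22.2 TPM with it. Its groups did not overlap and its log2 fold change was 2.6 ± 0.58 (SE, adjusted p = 0.0279), called in 2 of 6 fits.

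LTI30 encodes a dehydrin, a hydrophilic protein that protects membranes in drying or chilled cells. Its levels were 6.09, 7.3 and 4.4 TPM without salt and 22.4, 27.9 and 34.4 TPM with salt. The lowest salted library was far above the highest of the others, and the log2 fold change of 2.25 ± 0.58 (SE, adjusted p = 0.0495) was called in 1 of 6 fits. It was not called by edgeR when scaled to library totals alone (adjusted p = 0.0523) or with the replicate number as a block (adjusted p = 0.0611). Nor was it with RLE scaling factors (adjusted p = 0.05001) or without the filter on low counts (adjusted p = 0.0613). The bases before its RefSeq start are shown because they hold the dehydration response element core, CCGAC on either strand, in capitals. They are chr3:18940429-18940642 of TAIR10.1, plus strand, cut where the neighbouring gene AT3G50960 ends.
LTI30: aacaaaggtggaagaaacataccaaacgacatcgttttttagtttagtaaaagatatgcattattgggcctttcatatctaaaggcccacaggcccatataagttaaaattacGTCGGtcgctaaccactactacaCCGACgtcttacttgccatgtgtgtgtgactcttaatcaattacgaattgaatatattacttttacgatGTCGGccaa
The 3 cores start 101, 78 and 9 bases before the annotated start of the gene, and 12.0% of the 27443 windows of 250 bases before a gene start hold at least 1.

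Sugar metabolism gave another of the large rises. CWINV5, named as a cell wall invertase, the class of enzyme that splits sucrose outside the cell, stood at 6.58, 9.02 and 3.78 TPM without salt and 24.2, 19 and 24 TPM with it. No value overlapped, the log2 fold change was 1.80 ± 0.27 (SE, adjusted p = 0.00444), and the call held in all 6 fits. SIP2, a raffinose-cleaving galactosidase, went from 22.7, 29 and 18.3 TPM to 49.2, 46.1 and 45.5 TPM, a log2 fold change of 1.01 ± 0.22 (SE, adjusted p = 0.0241) called in 2 of 6 fits. HIPP22, a metal-binding protein of the isoprenylated class, had 3.73, 7.8 and 5.1 TPM without salt and 11.8, 18.5 and 20.7 TPM with salt. Its second mannitol-heat library came nearest to the salted ones, and its log2 fold change of 1.61 ± 0.28 (SE, adjusted p = 0.00577) was called in all 6 fits.

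The stress-tolerance gene AT1G05340, which encodes a small cysteine-rich membrane protein, was the most abundant of the 12 largest rises. It measured 96.7, 109 and 114 TPM without salt and 280.5, 427 and 365 TPM with it, a log2 fold change of 1.69 ± 0.43 (SE, adjusted p = 0.0473), and held in 1 of 6 fits. CYP76C2, a cytochrome P450, lay at 1.35, 1.76 and 0.761 TPM and 5.94, 6.25 and 5.77 TPM, with a log2 fold change of 2.24 ± 0.57 (SE, adjusted p = 0.0454) in 1 of 6 fits. The salted libraries of both genes were above all others. UGT76E12, another glycosyltransferase, had 2.05, 1.81 and 2.05 TPM against 5.9, 5.78 and 5.26 TPM and a log2 fold change of 1.51 ± 0.33 (SE, adjusted p = 0.0231), called in 2 of 6 fits. The rest of the 12 were AT4G33467, AT4G01985, AT2G05510 and AT1G17744, AT2G05510 a glycine-rich protein and the others without a known function, with log2 fold changes from 1.59 to 1.68. AT2G05510 was not called without the second mannitol-heat library (log2 fold change 1.54, adjusted p = 0.05). Of 139 tested genes in the UDP-glycosyltransferase class, which was picked for counting after the calls were seen, 4 rose and 1 fell. Over all genes 0.854% rose and 1.76% fell, and the median log2 fold change of the class was 0.06. Without the second mannitol-heat library 8 of the class rose and 6 fell, where 3.51% of all genes rose and 6.82% fell.

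**Figure D2:**
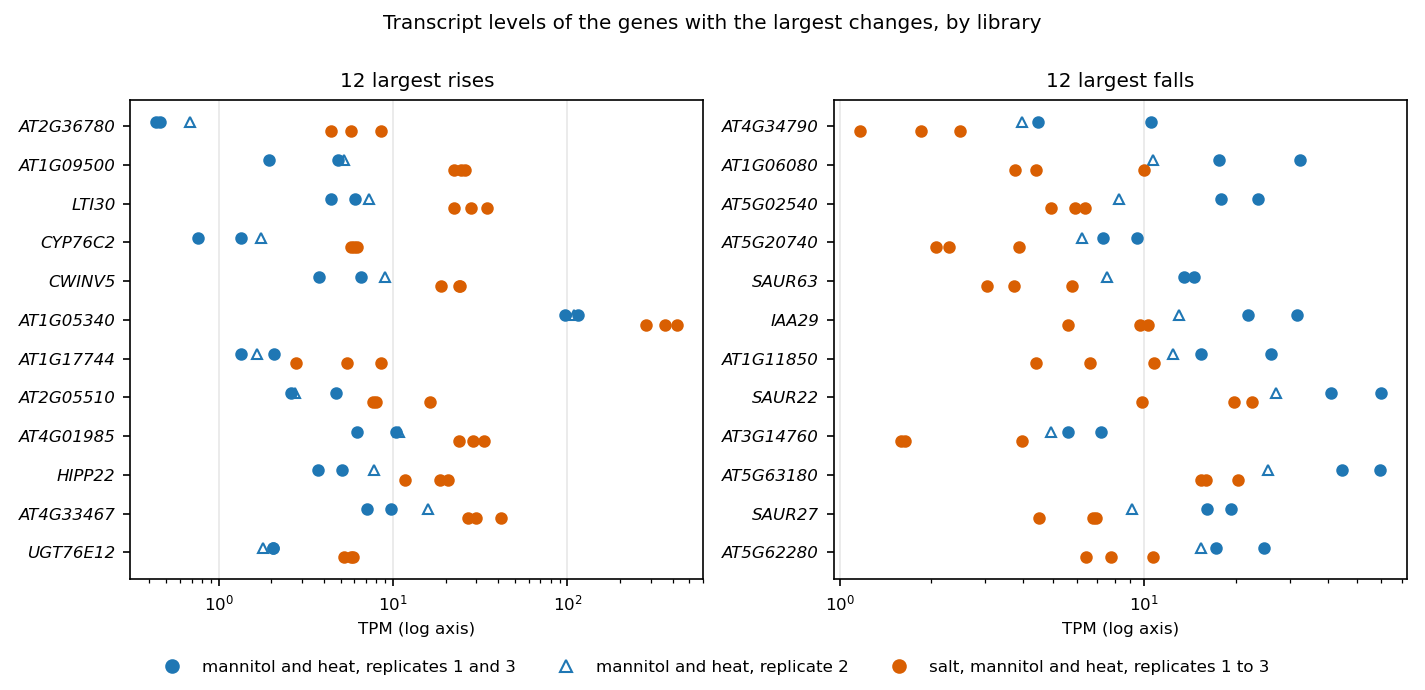
TPM (horizontal axis, log scale) in each of the 6 libraries for the 12 genes with the largest rises (left) and the 12 with the largest falls (right) among called genes with a mean of at least 5 TPM in either group and no overlap between groups. Blue marks are libraries without salt, the open triangle the second mannitol-heat library, and orange marks the salted libraries; in all 12 falls the triangle is the blue mark nearest to orange.

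Genes of auxin fell together. Of 21 tested genes on the auxin list (synthesis, transport and early response, some SAUR genes included), 8 fell and none rose. The median log2 fold change of the 21 was -0.81 against -0.02 over all genes, of which 1.76% fell. Without the second mannitol-heat library 14 of the 21 fell, and over the 6 fits leaving out 1 library the number ran from 1 to 14. IAA29, an early auxin-response repressor, lay at 21.9, 13 and 31.7 TPM without salt and 5.64, 9.72 and 10.3 TPM with it. The groups did not overlap, although the second mannitol-heat library was close to the highest salted one, and the log2 fold change was -1.40 ± 0.32 (SE, adjusted p = 0.0302), called in 2 of 6 fits. YUC8, a flavin monooxygenase that makes auxin, had 1.77, 1.44 and 1.69 TPM and 0.526, 0.718 and 0.455 TPM. Its log2 fold change of -1.53 ± 0.27 (SE, adjusted p = 0.00604) was called in all 6 fits. The related synthesis genes YUC9 and YUC2 fell by similar amounts, with log2 fold changes of -1.13 ± 0.30 (SE, adjusted p = 0.0425) and -1.04 ± 0.24, adjusted p = 0.0241, and the repressor IAA19 had one of -0.81 ± 0.21, adjusted p = 0.0382; these were called in 2, 2 and 1 of 6 fits.

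SAUR genes, which act downstream of auxin in cell elongation, were counted as a family after the calls were seen. This count is not independent of the auxin list, which holds SAUR19 to SAUR24. SAUR20, SAUR22 and SAUR24 are among the falls of both. Of 53 tested, 6 fell and none rose, with a median log2 fold change of -0.52, where 1.76% of all genes fell. Without the second mannitol-heat library 18 fell and 3 rose, where 6.82% of all genes fell and 3.51% rose. SAUR63 measured 14.5, 7.57 and 13.5 TPM without salt and 5.79, 3.73 and 3.05 TPM with salt, a log2 fold change of -1.51 ± 0.30 (SE, adjusted p = 0.0119) in 3 of 6 fits. SAUR22 measured 41.1, 27.1 and 59.8 TPM and 9.8, 22.6 and 19.8 TPM, a log2 fold change of -1.34 ± 0.33 (SE, adjusted p = 0.035) in 1 of 6 fits. In both genes the second mannitol-heat library lay lowest of its group, just above the salted range. SAUR27 had 19.2, 9.15 and 16.1 TPM against 4.51, 6.92 and 6.81 TPM and a log2 fold change of -1.33 ± 0.30 (SE, adjusted p = 0.0209), called in 2 of 6 fits. AT4G34790, a SAUR-like gene, gave the largest fall of all by this rule, from 4.47, 3.97 and 10.5 TPM to 1.16, 1.86 and 2.48 TPM, or -1.83 ± 0.45 (SE, adjusted p = 0.0308), called in 2 of 6 fits. In the third mannitol-heat library it was more than 2-fold above its level in the other 2, and without that library its log2 fold change was -1.24 (adjusted p = 0.269). SAUR20 and SAUR24, which sit beside SAUR22 on chromosome 5 and resemble it closely, fell too, each in 2 of 6 fits (-0.88 ± 0.20, adjusted p = 0.0231 and -0.74 ± 0.17, adjusted p = 0.0241), while their neighbours SAUR19 and SAUR23 did not pass the test (adjusted p = 0.111 and 0.0552); reads could have been split among these copies.

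The windows before SAUR22 and SAUR27 are shown as those of 2 family members on different chromosomes that moved together. They are chr5:5975088-5975337 on the minus strand and chr3:980822-981071 on the plus strand of TAIR10.1, and capitals mark TTGAC, the W box core, on either strand.
SAUR22: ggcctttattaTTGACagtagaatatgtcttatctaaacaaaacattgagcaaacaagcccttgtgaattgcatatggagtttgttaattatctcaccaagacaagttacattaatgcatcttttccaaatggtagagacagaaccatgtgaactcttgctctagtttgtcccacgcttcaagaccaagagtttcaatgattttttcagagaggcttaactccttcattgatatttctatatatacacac
SAUR27: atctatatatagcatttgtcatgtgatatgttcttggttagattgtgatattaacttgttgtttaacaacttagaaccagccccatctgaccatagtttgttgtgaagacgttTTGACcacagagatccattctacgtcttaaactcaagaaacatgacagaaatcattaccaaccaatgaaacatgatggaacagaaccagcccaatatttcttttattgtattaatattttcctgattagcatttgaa
Neither held CCGAC, and neither held the ABA response element core (ACGTG), the heat shock element core (GAANNTTC), the evening element (AAATATCT) or the GCC box (GCCGCC). The W box core is common, and 44.9% of all windows held it.

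Other large falls were in lipid, wall and unclassified genes. AT1G06080, a delta 9 desaturase that puts the first double bond into fatty acids, went from 17.63, 10.7 and 32.5 TPM to 3.77, 4.4 and 9.96 TPM. The highest salted library was just under the lowest other one, and the log2 fold change was -1.78 ± 0.42 (SE, adjusted p = 0.0337), called in 2 of 6 fits. AT5G02540, a Rossmann-fold protein, had 17.9, 8.27 and 23.6 TPM and 4.96, 6.4 and 5.93 TPM, with a log2 fold change of -1.54 ± 0.30 (SE, adjusted p = 0.0143) in 3 of 6 fits. AT5G20740, annotated as an inhibitor of invertase or pectin methylesterase, measured 7.34, 6.27 and 9.49 TPM without salt and 2.07, 2.28 and 3.87 TPM with salt. Its groups were well apart and its log2 fold change of -1.51 ± 0.23 (SE, adjusted p = 0.00172) was called in all 6 fits. AT5G63180, a pectin lyase-like protein of the kind that cuts wall pectin, lay at 44.4, 25.4 and 59.4 TPM and 16, 20.4 and 15.4 TPM, or -1.33 ± 0.25 (SE, adjusted p = 0.0122), in 4 of 6 fits. The remaining 3 of the 12, AT1G11850, AT3G14760 and AT5G62280, have no known function, and their log2 fold changes ran from -1.36 to -1.21.

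Glucosinolate synthesis genes of the methionine-derived branch fell together. Of 29 tested genes in the deposited class, picked for counting after the calls were seen, 11 fell and none rose, against 1.76% of all genes, and the median log2 fold change was -0.36. Without the second mannitol-heat library 16 fell, and the count ran from 3 to 16 over the 6 fits. BCAT4 opens the chain elongation of methionine as an aminotransferase. It stood at 316, 287 and 280.4 TPM without salt and 201, 142 and 151 TPM with salt, with a log2 fold change of -0.84 ± 0.12 (SE, adjusted p = 0.000935) that held in all 6 fits. MAM1, the condensing enzyme of the next step, had 236, 222 and 204 TPM and 175, 124 and 129 TPM, a log2 fold change of -0.63 ± 0.10 (SE, adjusted p = 0.00444) called in 6 of 6 fits. In both genes the groups were apart, and the first salted library was the highest of its group.

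Further along the chain, the isomerase subunits IPMI1 and IPMI2 had log2 fold changes of -0.85 ± 0.20 (SE, adjusted p = 0.0299) and -0.70 ± 0.13, adjusted p = 0.00876, called in 2 and 5 of 6 fits. BCAT3, which closes the elongation cycle, went from 87.2, 61.1 and 82.1 TPM to 52.8, 44.8 and 43.7 TPM, or -0.71 ± 0.11 (SE, adjusted p = 0.00349), in all 6 fits. The core-structure enzymes CYP79F1 and CYP83A1, both cytochrome P450s, measured 191, 163 and 155 TPM against 133, 77.2 and 88 TPM and 240.2, 218 and 206 TPM against 189.8, 142 and 146 TPM. Their log2 fold changes were -0.78 ± 0.15 (SE, adjusted p = 0.0124) and -0.48 ± 0.10, adjusted p = 0.0146, called in 4 and 4 of 6 fits. For CYP79F1, as for BCAT4, the first salted library was the one nearest to the other group. UGT74B1, SOT18, FMO GS-OX1 and AOP3, which add glucose and sulfate to the core or modify its side chain, fell with log2 fold changes from -0.62 to -0.37.

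The window before BCAT4, the pathway's most abundant called gene, is shown for the same motifs; it is chr3:6849583-6849832 of TAIR10.1, minus strand, and no letter is in capitals because none of the 6 motifs occurred in it.
BCAT4: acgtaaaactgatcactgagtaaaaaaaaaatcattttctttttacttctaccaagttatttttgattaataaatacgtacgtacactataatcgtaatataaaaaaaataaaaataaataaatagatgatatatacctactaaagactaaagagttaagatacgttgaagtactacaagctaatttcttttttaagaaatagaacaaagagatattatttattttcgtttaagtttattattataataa
Among the 11 glucosinolate genes that fell, 5 windows held ACGTG, against 22.9% of all windows, 1 held TTGAC, and none held the other 4 motifs. Of the windows of the 171 genes that rose, 35.7% held ACGTG and 11.7% held CCGAC. For the 353 that fell those shares were 20.7% and 11.3%, and GAANNTTC stood in 7.02% and 5.95% of the windows of rises and falls, against 9.55% of all. These shares are descriptions of the letters and were not tested.

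Cell wall genes gave calls in both directions. EXP3, an expansin that loosens growing walls, was the 1 called member of 35 tested expansins and xyloglucan endotransglucosylases. Its levels were 38.2, 28.1 and 50 TPM without salt and 20.4, 22.5 and 19.3 TPM with it, with no overlap and a log2 fold change of -0.91 ± 0.17 (SE, adjusted p = 0.00936), called in 5 of 6 fits. The median over the 35 was -0.28, and without the second mannitol-heat library 10 fell, where 6.82% of all genes did. Of 43 tested genes in the cellulose synthesis class, also picked after the calls were seen, 4 rose and 1 fell, with a median log2 fold change of -0.05. Over all genes 0.854% rose and 1.76% fell. Without the second mannitol-heat library 5 rose and 5 fell, so the excess of rises was not found there. IRX1, IRX3 and CESA4, the 3 catalytic subunits of secondary wall cellulose synthase, were among the rises. IRX3 went from 3.59, 3.74 and 2.97 TPM to 6.65, 5.15 and 5.17 TPM and IRX1 from 3.83, 3.52 and 3.07 TPM to 7.06, 5.09 and 4.85 TPM. Both were higher in every salted library, with log2 fold changes of 0.72 ± 0.12 (SE, adjusted p = 0.00506) and 0.70 ± 0.12, adjusted p = 0.00604, each called in 5 of 6 fits, and that of CESA4 was 0.50 ± 0.10, adjusted p = 0.0104, in 4 of 6. CSLB03, a cellulose synthase-like gene, rose (0.57 ± 0.15, adjusted p = 0.0382), and CSLC5, of the class that makes the xyloglucan backbone, fell (-0.55 ± 0.14, adjusted p = 0.0382) although its groups overlapped, each in 2 of 6 fits. The companion cell markers SUC2, AHA3 and FTIP1 summed to 114 to 125 TPM without salt and 129 to 147 TPM with it. None was called by edgeR with all 6 libraries, but 2 had an unadjusted p under 0.05, DESeq2 called 1, and 1 rose without the second mannitol-heat library and 1 under library totals alone; their part in the rise of these vascular wall genes was not tested.

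Most ABA and dehydration genes did not pass the test with all 6 libraries. Of 33 tested dehydration- and ABA-responsive genes LTI30 alone rose and none fell, but the median log2 fold change was 0.49. Leaving out the second mannitol-heat library, 8 rose, where 3.51% of all genes did, and the median was 0.80. KIN1, a cold- and ABA-induced protein, lay at 605, 1054 and 493 TPM without salt and 1720.0, 1615 and 2176 TPM with it, and RD26, an ABA-induced NAC transcription factor, at 24.5, 54.7 and 25.8 TPM and 57, 60.9 and 64.1 TPM. Neither passed the test with all libraries (1.30 ± 0.41 (SE, adjusted p = 0.0879) and 0.80 ± 0.30, adjusted p = 0.141), and the second mannitol-heat library was the highest of its group in both. Leaving it out gave log2 fold changes of 1.71, adjusted p = 0.0282 for KIN1 and 1.26, adjusted p = 0.0134 for RD26. Over all genes 0.854% rose with all libraries and 3.51% without the second mannitol-heat library. On the list of ABA synthesis, signalling and breakdown, 2 of 37 tested members were called, both higher, and the count was 10 without that library. The 2 were CYP707A3 and CYP707A2, hydroxylases that break ABA down, with log2 fold changes of 1.05 ± 0.26 (SE, adjusted p = 0.0347) and 0.73 ± 0.19, adjusted p = 0.0398, called in 2 and 1 of 6 fits.

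Osmolyte genes moved in both directions. Of 24 tested, 4 rose and 1 fell, and their median was -0.06. Over all genes 0.854% rose and 1.76% fell. Besides SIP2, P5CS2, a proline synthesis enzyme, went from 23.6, 25.9 and 23.4 TPM to 31.9, 30.6 and 27.2 TPM, and DELTA-OAT, an ornithine aminotransferase, from 25.5, 30.2 and 24 TPM to 38.5, 38 and 34.2 TPM. Both changes were small but without overlap, at 0.30 ± 0.08 (SE, adjusted p = 0.0371) and 0.47 ± 0.11, adjusted p = 0.0245 on the log2 scale. ALDH10A9, a betaine aldehyde dehydrogenase, rose by 0.26, and TPPH, a trehalose phosphate phosphatase, fell, with a log2 fold change of -0.86 ± 0.20 (SE, adjusted p = 0.0258). Each of these 4 was called in 2 of 6 fits.

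The sodium and potassium transport list gave no edgeR call with all 6 libraries. None of 33 tested sodium and potassium transport genes passed edgeR's test with all libraries, with 6 at an unadjusted p under 0.05 and 1 called by DESeq2. None of 18 calcium and SOS signalling genes and none of 21 aquaporin genes passed either, with 4 each at an unadjusted p under 0.05 and 1 each called by DESeq2. HKT1, which retrieves sodium from the xylem, had 1.32, 0.922 and 1.26 TPM without salt and 0.81, 0.677 and 0.622 TPM with it, without overlap but with an adjusted p of 0.0716. Its log2 fold change without the second mannitol-heat library was -0.87, adjusted p = 0.0234, and 5 of the 33 were called then. On the anion and nitrate list 2 of 23 rose and none fell, where 0.854% of all genes rose and 1.76% fell. SLAH3, an anion channel of the slow type, lay at 3.21, 2.84 and 2.79 TPM and 6.06, 5.34 and 7.41 TPM, a log2 fold change of 1.08 ± 0.22 (SE, adjusted p = 0.0158) in 4 of 6 fits. NIA2, a nitrate reductase, measured 59.7, 49.4 and 54.8 TPM and 83.3, 72.4 and 73.3 TPM, or 0.48 ± 0.12 (SE, adjusted p = 0.0323), in 2 of 6 fits. The 3 salted libraries were the highest for both.

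Few heat shock genes passed edgeR's test between the 2 heated groups with all libraries, and those that did were lower with salt. None of 16 small heat shock protein genes was called by edgeR or by DESeq2, 3 had an unadjusted p under 0.05, and the median was 0.01. Of 26 large chaperones and co-chaperones HSC70-1, a constitutive Hsp70, was the 1 call by edgeR with all libraries and fell, from 951, 768 and 997 TPM to 550.5, 646 and 722 TPM, or -0.51 ± 0.10 (SE, adjusted p = 0.0148), in 2 of 6 fits. The median over the 26 was -0.18, with 2 positive values and 12 unadjusted p under 0.05. DESeq2 called 4, and with the second mannitol-heat library left out 10 fell by edgeR, where 6.82% of all genes did. Among 23 heat shock factors and regulators 3 fell and none rose, where 1.76% of all genes fell. The median over the 23 was 0.06, 7 had an unadjusted p under 0.05, and DESeq2 called 4. HSFA7A, a heat shock factor, lay at 7.67, 6.34 and 7.52 TPM without salt and 2.88, 4.59 and 4.84 TPM with it, a log2 fold change of -0.82 ± 0.18 (SE, adjusted p = 0.0187). MBF1C, a coactivator needed for heat tolerance, lay at 640.1, 718 and 517 TPM and 403, 477 and 419 TPM, or -0.54 ± 0.13 (SE, adjusted p = 0.0279), and the repressor factor AT-HSFB2B fell by a smaller amount (-0.41 ± 0.10, adjusted p = 0.0321). Each of the 3 was lower in all salted libraries, they were called in 3, 2 and 1 of 6 fits, and AT-HSFB2B was not called without the second mannitol-heat library (log2 fold change -0.33, adjusted p = 0.0501). No unfolded protein response gene of 23 was called by edgeR with all libraries, 7 had an unadjusted p under 0.05, DESeq2 called 1, and 5 fell without that library.

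The number of ribosomal protein genes called differed widely with and without 1 library, while nearly all leaned downward. Of 243 tested cytosolic ribosomal protein genes 10 fell and none rose with all 6 libraries, and 117 fell without the second mannitol-heat library, with medians of -0.24 and -0.34. Over all genes 1.76% and 6.82% fell in those fits. With all 6 libraries 12 of the 243 had a positive log2 fold change, 134 had an unadjusted p under 0.05, and DESeq2 called 27. When salt was added to mannitol without heat 199 of the 243 fell, with a median of -0.45, where 8.09% of all genes fell. AT3G11120, an abundant ribosomal protein gene, had 764, 643 and 727 TPM and 537, 447 and 542 TPM, a log2 fold change of -0.43 ± 0.09 (SE, adjusted p = 0.0147). AT1G23410 and AT3G18880, of low level, gave the largest falls on that list (-1.07 ± 0.25, adjusted p = 0.0253 and -1.39 ± 0.35, adjusted p = 0.0382), and AT3G01790 and AT2G33370 followed (-0.52 ± 0.11, adjusted p = 0.0189 and -0.50 ± 0.13, adjusted p = 0.0469). These 5 were called in 1 to 3 of 6 fits. By their annotation, some members of this deposited class may serve organelle ribosomes.

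Redox and photosynthesis lists had few calls, to be read beside the 0.854% of all genes that rose and the 1.76% that fell. CSD2, a copper/zinc superoxide dismutase of the chloroplast, went from 302, 219 and 205 TPM to 148, 91.3 and 125 TPM, a log2 fold change of -1.0 ± 0.23 (SE, adjusted p = 0.0293), in 2 of 6 fits. FSD2, an iron superoxide dismutase of the same compartment, went from 23.4, 18.9 and 25.1 TPM to 16.2, 16.3 and 16.6 TPM, or -0.47 ± 0.10 (SE, adjusted p = 0.0152). In both every salted library was lower, and CAT1, a catalase, rose (0.32 ± 0.09, adjusted p = 0.0488); these were the 3 calls among 39 reactive oxygen genes. GSTU5, a glutathione transferase, was the 1 fall among 20 sulfur and glutathione genes (-0.34 ± 0.08, adjusted p = 0.0277), and it, FSD2 and CAT1 were each called in 2 of 6 fits. Among 105 nuclear photosynthesis genes LHCB2.3, LHCB2.2 and PSAH2, parts of the light-harvesting antenna and photosystem I, fell with log2 fold changes of -0.55, -0.27 and -0.35, each in at most 2 of 6 fits, and the median over the list was -0.11. Leaving out the second mannitol-heat library, 11 of the 105 fell. Over all genes 1.76% fell with all libraries and 6.82% without that one, so both counts lie little above those shares.

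With all 6 libraries the salicylic acid, jasmonate, ethylene, clock and senescence lists each held 1 or 2 rises and no fall. Of all genes 0.854% rose. On the salicylic acid list 29 of 32 log2 fold changes were positive, with a median of 0.49 and 12 unadjusted p under 0.05. The jasmonate, ethylene, clock and senescence medians were -0.05, -0.01, 0.06 and 0.33. Without the second mannitol-heat library 5 of 25 clock genes rose and 1 fell. The jasmonate and ethylene lists then held 1 rise and 1 fall each, where 3.51% of all genes rose and 6.82% fell. Of 32 salicylic acid and immune genes EDS16, which makes the salicylic acid precursor isochorismate, rose from 4.5, 4.11 and 4.43 TPM to 6.13, 7.57 and 4.79 TPM, and SARD1, a transcription factor that activates it, from 1.04, 1.13 and 1.09 TPM to 2.46, 2.42 and 1.31 TPM. Their log2 fold changes were 0.50 ± 0.13 (SE, adjusted p = 0.0423) and 0.93 ± 0.22, adjusted p = 0.0281, each called in 2 of 6 fits, and the third salted library was close to the other group in both. CYP94B3, which oxidises the active jasmonate, was the 1 call of 35 jasmonate genes (2.34 ± 0.56, adjusted p = 0.0337), and ACS2, an ethylene synthesis enzyme read from 21 and 108 reads, the 1 call of 23 ethylene genes (2.39 ± 0.62, adjusted p = 0.044), in 3 and 1 of 6 fits. For CYP94B3 the second salted library was the highest, at 3.65 TPM against 1.35 and 1.34 TPM in the others, and without it the log2 fold change was 1.68 (adjusted p = 0.15). ELF4, an evening-complex clock protein, went from 6.69, 4.84 and 4.56 TPM to 11.5, 16.1 and 12.5 TPM, or 1.29 ± 0.35 (SE, adjusted p = 0.0476), in 1 of 6 fits. NYE1, which starts chlorophyll breakdown, was the 1 rise of 19 senescence genes with all libraries (0.41 ± 0.11, adjusted p = 0.0457), in 1 of 6 fits, and 8 rose without the second mannitol-heat library. Flavonoid genes (15 tested) and iron genes (16 tested) gave no call by edgeR, with 3 each at an unadjusted p under 0.05, and DESeq2 called none and 1.

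**Figure D3:**
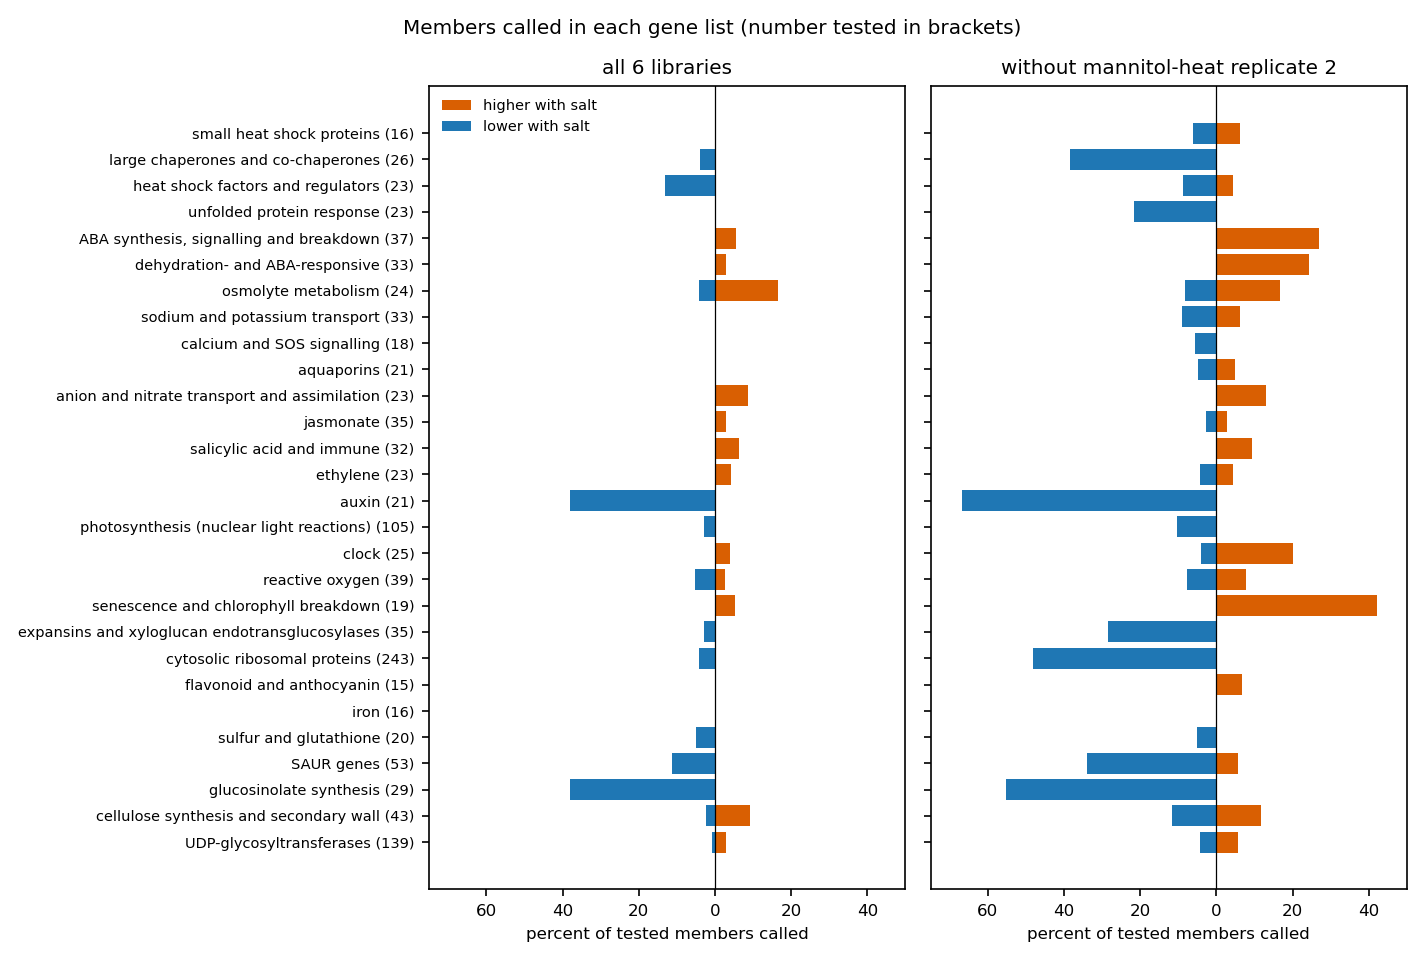
Percent of tested members of each gene list (rows, number tested in brackets) that were called higher (orange, right) or lower (blue, left) with salt, with all 6 libraries (left panel) and without the second mannitol-heat library (right panel). The auxin and glucosinolate lists have the longest bars in the left panel, at 8 of 21 and 11 of 29 members, and the ribosomal and senescence bars lengthen in the right panel.

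The same addition of salt to mannitol was also made without heat, and these libraries share none with the heated comparison. There 2675 genes were called, 13.4% of those tested. Of the 171 genes that rose with heat, 47 also rose and 2 fell without it, and of the 353 that fell, 152 also fell and 4 rose. The 205 genes called in both made up 39.1% of the calls with heat and 7.66% of those without, and 199 of them had the same direction. Across the 20027 genes the 2 log2 fold changes had a Pearson correlation of 0.386, a description over genes that are not independent and that share each library's depth. The genes that differed at least 2-fold without heat moved the same way with heat in their medians. For 91 such higher genes the median with heat was 0.72, and 7 rose and none fell. For 114 such lower genes it was -0.64, and 17 fell and none rose.

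**Figure D4:**
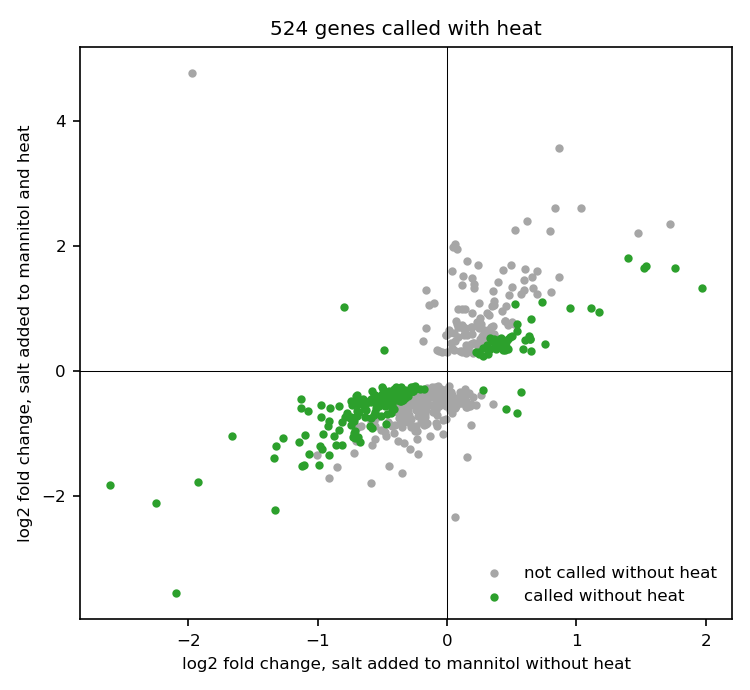
Log2 fold change on adding salt to mannitol without heat (horizontal axis) and with heat (vertical axis) for the 524 genes called with heat, each a point, green where also called without heat. Green points lie at the upper right and lower left except for 6 of 205.

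The difference between the 2 salt effects was tested directly as an interaction. It passed for 6 genes, 0.03% of those tested, of which 3 had the more positive effect with heat and 3 the more negative, and 1986 genes had an unadjusted p under 0.05. DESeq2 called 107. PRR5, a clock repressor, had the largest difference. Its means were 5.49 ± 1.02 TPM with mannitol and 3.27 ± 0.157 TPM with salt and mannitol (SD, n = 3), against 8.19 ± 0.74 TPM and 10.4 ± 0.604 TPM in the heated groups. The effect differed by 1.10 ± 0.16 (log2, SE, adjusted p = 0.00663). TIN1, a gene known for its induction by protein-folding stress, showed the opposite order, with log2 fold changes of 0.58 without heat and -0.34 with heat, a difference of -0.91 ± 0.13 (log2, SE, adjusted p = 0.00663). The auxin list fell in both settings, with 8 of 21 members lower and a median of -0.56 without heat. The glucosinolate class had 1 fall of 29 and a median of -0.08 when salt was added to mannitol without heat, 3 falls and -0.27 when it was added to heat, and 11 falls and -0.43 when it was added to control plants. Between the mannitol settings no member of it passed edgeR's test of the difference, with 12 at an unadjusted p under 0.05 and 4 called by DESeq2. BCAT4 had log2 fold changes of -0.84 with heat and -0.15 without, and CYP79F1 of -0.78 and -0.01. Leaving out 1 of these 12 libraries gave between 3 and 13 calls of a difference, the lowest without the first mannitol-heat or the second mannitol library and the highest without the first salt-mannitol-heat library.

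**Figure D5:**
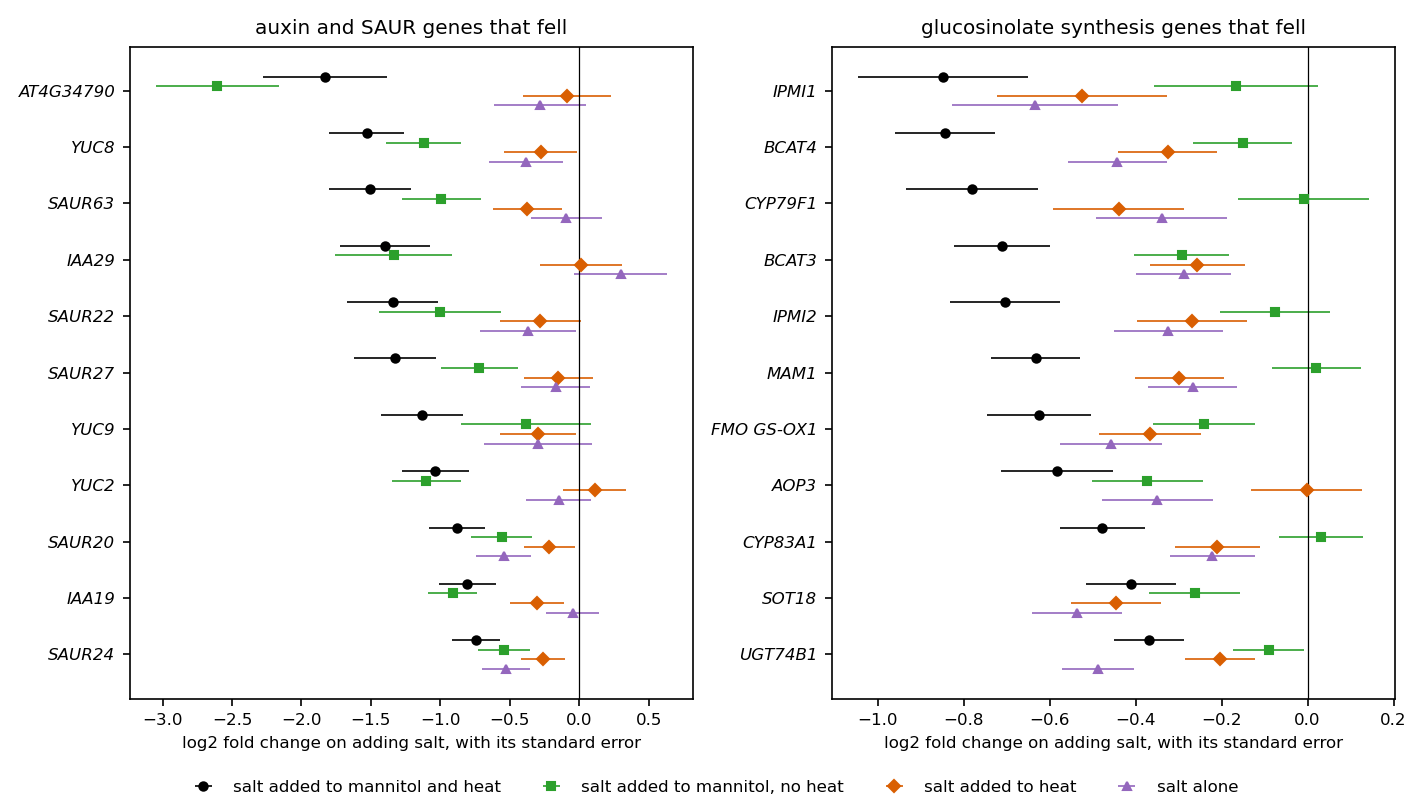
Log2 fold change on adding salt, with its standard error (horizontal axis), for the auxin and SAUR genes (left) and the glucosinolate genes (right) that fell in the heated mannitol comparison, in 4 settings. Black circles are salt added to mannitol and heat, green squares to mannitol, orange diamonds to heat, and purple triangles to control plants; genes were chosen by the black values, which lie left of 0 for that reason, and the green squares of YUC8, SAUR63 and IAA29 lie further left than the orange diamonds.

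Salt added to heat without mannitol gave another picture. It called 206 genes, 1.03% of those tested, and of the 524 genes called here 19 were among them, 12 in the same direction. The salt-heat group was watered, while no watering is recorded for the heat group. Watering therefore enters the salt effect on heat and any difference from it, and its part was not tested. The difference between the salt effects with and without mannitol in heated plants passed for 288 genes, 1.44% of those tested, 158 more positive and 130 more negative with mannitol. Without the second mannitol-heat library that balance turned, with 409 more positive and 613 more negative. AT2G36780 had the largest difference, 4.93 ± 0.80 (log2, SE, adjusted p = 0.0102), with means of 2.64 ± 2 TPM in heat and 1.02 ± 0.445 TPM in salt-heat plants (SD, n = 3). FER1, an iron store, was at 1022 ± 605 TPM in heat and 324 ± 129 TPM in salt-heat plants, against 135 ± 27.4 TPM and 381 ± 106 TPM in the mannitol-heat and salt-mannitol-heat groups. Its salt effect differed by 3.14 ± 0.67 (log2, SE, adjusted p = 0.0334). On the negative side DVL21, a small signalling peptide of the DEVIL family, did not pass the test in the mannitol setting (adjusted p = 0.0725) and differed by -2.69 ± 0.66 (log2, SE, adjusted p = 0.0409) between settings, and PMAT2, a malonyltransferase, by -1.38 ± 0.24 (log2, SE, adjusted p = 0.00921). Fitted on these 4 groups alone, 14 genes passed, and AT2G36780 (adjusted p = 0.0729), FER1 (0.0898) and DVL21 (0.112) were not among them. Without the second mannitol-heat library 1022 passed in all, without the first heat library 663, and without the third mannitol-heat library 66. Without the first or second salt-heat library 60 and 75 passed, without the second heat library 71, without the first mannitol-heat library 121, and without the first or second salted mannitol-heat library 71 and 118.

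Genes moved by each stress alone were then followed here, in groups that share no library with this comparison. Salt alone called 10.9% of tested genes against control plants. No watering is recorded for the control group, so watering enters the salt and mannitol effects against it. Of 149 genes at least 2-fold higher in salt than in control plants, 9 rose and 2 fell, with a median of 0.44, and 30 rose without the second mannitol-heat library. Of 134 at least 2-fold lower in salt, none rose and 13 fell, with a median of -0.34. Genes at least 2-fold higher in mannitol than control numbered 540, of which 8 rose and 8 fell. Their median was 0.23 and 67.2% had a positive value, against -0.02 and 46.3% over all genes. Of 274 at least 2-fold lower in mannitol, 5 rose and 8 fell, with a median of -0.04. Of 2092 genes at least 2-fold higher in heat, 27 rose and 68 fell, or 1.29% and 3.25%, beside 0.854% and 1.76% of all genes. Over the 171 rises the median log2 fold change in salt alone was 0.18, and over the 353 falls it was -0.15. LTI30 is among the genes high in salt alone, with a log2 fold change of 2.16 there and 0.52 when salt was added to mannitol without heat.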

How the data were processed

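Whole-rosette RNA gave paired reads of 100 bp; each lane took 12 libraries, and the labels do not say which. Per the submitters' processing notes, CASAVA, kallisto 0.45.1 and sleuth 0.30.0 were used; per the file headers, the authors' estimated counts come from kallisto with 1 transcript model per gene of the Araport 11 annotation. The genome build is not given in the sources used here. The deposited estimated counts were whole reads times 1 constant per library (0.797 to 1.25): dividing it out gave whole numbers within 0.01 for 94.7% to 95.2% of values. These were rounded and used as counts. The deposited signal columns are TPM per the file headers, but their sums differ between libraries, so a scaling by the authors is likely; they are printed as levels only.

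Of 27655 genes, the 20027 passing edgeR's filter were fitted over all 24 libraries and 8 groups (edgeR 4.0.16, TMM, quasi-likelihood; R 4.3.3) and adjusted p-values (Benjamini-Hochberg) taken over all of them; the script was checked on simulated data. DESeq2 1.42.0, limma 3.58.1 on log2(TPM + 1) computed from the deposited TPM, other scalings, no filter, the 4 groups or 2 groups of a comparison alone, a replicate block and each library left out were the alternatives. The comparison, its members and the gene lists were chosen with earlier results of these data known; gene list members were written out again by symbol or deposited class after the calls were seen, and 4 classes were added then. The naming rules took the 12 largest rises and falls (adjusted p under 0.05, mean of at least 5 TPM in either group, no overlap between groups). They also took up to 4 called members of each list and up to 5 genes per direction of each difference in the salt effect. Other genes are named with their list after their values were seen. Of the genes, 27445 matched the RefSeq table, and 99.996% of 26643 positions in the deposited descriptions overlap those of TAIR10.1, from whose RefSeq sequence the promoter windows were read. Counting error and library number limit precision; no library was taken for a repeat of another, since replicate counts differed by 5.24 to 23.5 times the sampling variance.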

Additional observations from a re-analysis of the deposited data

Results flagged for a closer look

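2 kinds of result were picked out because the effect of adding salt differed between settings by a test of the difference itself, edgeR's interaction term. Between heated and unheated mannitol-watered plants 6 genes differed. The log2 effect of salt was more positive with heat by 1.10 for PRR5, a clock repressor, by 0.90 for ASE2, an enzyme of purine synthesis, and by 0.81 for AT5G63120, a nucleoside triphosphate hydrolase. It was more negative by -0.91 for TIN1, by -0.63 for HCAR, an enzyme of chlorophyll turnover, and by -0.59 for AT3G26450, a lipid transport-like protein. HCAR did not pass without the second mannitol-heat library (adjusted p = 0.0616).

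Between heated plants with and without mannitol 288 genes differed. Watering, not recorded for the heat group, enters that difference. The largest positive log2 differences were 4.93 for AT2G36780, 3.14 for FER1, 2.98 for AT4G01870, a TolB-like protein, 2.86 for AT1G17744 and 2.57 for UGT73B2, a flavonoid glucosyltransferase. In each of these the salt effect was positive with mannitol and negative without it. The largest negative differences were -2.69 for DVL21, -1.57 for AT1G59920, annotated as a MADS-box protein, and -1.38 each for XTH31, a wall-remodelling enzyme, AT3G01960, of unknown function, and PMAT2. All 5 had a negative log2 effect with mannitol and a positive one without it. Of these 10 genes AT2G36780, AT1G17744 and PMAT2 passed the test in the mannitol setting itself.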

How the results depend on the processing

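With all 6 libraries 524 genes were called for the salt effect. Asking for at least 2-fold left 101, DESeq2 gave 1035, the 2 groups fitted alone gave 157 (116 higher and 41 lower), and leaving out the 4 libraries of the series with the highest organelle shares, an alternative added after seeing the data, gave 1797. Leaving out 1 library gave 45 to 2087. RLE factors (509), no filter (431), deposited counts (582), limma (462), library totals alone (439) and removal of organelle genes (556) stayed within 1.5 times. For the 6 genes whose effect differed from that without heat, the same settings gave 1 at 2-fold, 107 by DESeq2 and 0 by edgeR without the 4 libraries (1468 at an unadjusted p under 0.05), and 3 to 13 with 1 library left out. For the 288 that differed from salt on heat they gave 90, 641, 14 from the 4 groups alone and 656, and 60 to 1022 with 1 library left out. None of the 70 called genes that the naming rules picked for the main comparison changed direction in these fits. Of them 57 to 70 stayed called under the settings that keep all libraries, except with the 2 groups alone (18). The cause of these shifts was not tested. The replicate block, fitted although the numbers were not taken as pairing (same-number correlations of deviations were 0.117, 0.075 and 0.0708, although each library correlated best with its own number), gave 470, 5 and 248 calls. At 12498514 to 15859773 reads and 3 libraries a group, small changes of weakly expressed genes were not detectable.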

Other observations

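Calls that held in every fit leaving out 1 library numbered 32 of the 524, and genes named here only for that were chosen after their values were seen. Among those that rose were SUS1, a sucrose synthase (log2 fold change 1.07), MES16, a methyl esterase of chlorophyll breakdown (1.42), UGT74F2, a glucosyltransferase of salicylic acid (1.38), IRX12, a laccase of the lignified wall (0.79), CTL2, a chitinase-like protein of wall formation (0.69), and MSL4, a mechanosensitive channel (2.02). SUS1 lay at 7.43, 8.92 and 6.79 TPM without salt and 16.3, 15.4 and 16.8 TPM with it, and IRX12 at 6.17, 6.94 and 5.82 TPM and 13.2, 9.02 and 10.4 TPM. The salted libraries were the highest for both.

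Among those that fell were LAX2, an auxin influx carrier (-0.79), HMT3, which makes methionine from homocysteine (-1.01), and GSTF11, a glutathione transferase (-0.99). GSTF11 measured 36.3, 34.5 and 31.9 TPM without salt and 22.6, 13.9 and 15.1 TPM with it. AT5G22580, a stress-responsive barrel-domain protein, measured 401, 316 and 455 TPM and 168, 212 and 189.5 TPM, with a log2 fold change of -1.06 ± 0.13 (SE, adjusted p = 0.000935). In both, the salted libraries lay below all others.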
